A study of Mus musculus with 6 samples.

Results

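Nanog, Klf4, Klf5, Tet2, Tfap2c and Id3 are 6 regulators tied to naive pluripotency, and they were followed in mouse embryonic stem cells with and without Yaf2. They were taken by symbol from the deposited gene tables, where all 6 are among the 1653 genes listed. RNA was sequenced from 3 wild-type and 3 Yaf2KO libraries of strain C57BL/6. Cells of each genotype grew with serum and leukemia inhibitory factor (LIF) on a layer of mitomycin-treated embryonic fibroblasts. Cas9 was used to make the Yaf2KO cells. The sources used here do not give whether these are 1 clone or several, or whether the libraries of a genotype are separate cultures. A p-value here therefore reflects the spread among these libraries alone, which may be technical in part. The Yaf2KO libraries are not alike: Yaf2KO 1 differed from Yaf2KO 2 and 3 in genes of the Y chromosome, as given below. YAF2 is a subunit of variant Polycomb repressive complex 1, which marks silent developmental genes through histone H2A ubiquitination. By its title the study is about how Yaf2 regulates genes.

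Naive pluripotency is the state of the epiblast before implantation, held in culture by a small network of transcription factors that LIF and BMP signals feed. NANOG is a homeodomain factor of that network. KLF4 and KLF5 are zinc finger factors of 1 family; Klf4 is a target of LIF and STAT3, and each can sustain self-renewal when supplied in excess. TFAP2C is an AP-2 factor of trophectoderm and primordial germ cells that also binds naive enhancers. ID3 lacks a DNA-binding basic region and blocks E proteins downstream of BMP and SMAD signalling. TET2 oxidises methylcytosine and thereby opens the way to DNA demethylation. Klf4 and Id3 are also expressed by fibroblasts, the cells of the feeder layer.

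In the deposited files Nanog lies on chromosome 6 (122707489 to 122714633, plus strand), Klf4 on chromosome 4 (55527143 to 55532466, minus strand) and Klf5 on chromosome 14 (99298691 to 99313405, plus strand). Tet2 lies on chromosome 3 (133463679 to 133545139, minus strand), Tfap2c on chromosome 2 (172549593 to 172558622, plus strand) and Id3 on chromosome 4 (136143497 to 136145755, plus strand), all in mm10. All 6 are protein-coding in GENCODE vM21, and 5 have identical coordinates there, Klf5 being the exception. Each count is a sum over the whole gene, so exons and isoforms are not told apart. Reads of Nanog are uncertain to the extent that its retrocopies share sequence with it.

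The promoters of Nanog and Klf4 are shown because the ratio of these genes is the result on which the comparison turns. Each stretch holds the 250 bases before a RefSeq start (for Nanog the first of 2), 5′ to 3′ on the gene's strand (GRCm38.p6), with matches to the motifs below in capitals. The Nanog stretch is chr6:122707239-122707488, plus strand, and the Klf4 stretch is chr4:55532476-55532725, minus strand.
Nanog: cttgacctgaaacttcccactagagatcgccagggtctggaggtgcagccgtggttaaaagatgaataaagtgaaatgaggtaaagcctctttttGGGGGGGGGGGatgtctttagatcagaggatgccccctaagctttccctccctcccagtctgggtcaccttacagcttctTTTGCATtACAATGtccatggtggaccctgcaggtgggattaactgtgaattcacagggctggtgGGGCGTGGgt
Klf4: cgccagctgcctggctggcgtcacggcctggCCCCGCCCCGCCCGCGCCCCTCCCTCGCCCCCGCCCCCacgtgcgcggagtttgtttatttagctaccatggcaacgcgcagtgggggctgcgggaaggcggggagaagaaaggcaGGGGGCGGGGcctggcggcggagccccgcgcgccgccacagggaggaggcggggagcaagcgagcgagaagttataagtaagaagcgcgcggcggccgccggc
The motifs searched, on either strand, were the octamer core ATGCAAA, the SOX motif CATTGT, the KLF/SP box GGGNGNGG, the STAT motif TTCNNNGAA and the TATA box TATAAA. In Nanog the octamer core begins 75 bases before the start and the SOX motif 67 bases before it. They do not overlap, and 4.13% and 10.7% of the 32817 promoter windows of that length hold a match to each. The KLF/SP box matched 5 times in Nanog, 4 of them overlapping in a single run of G, and 9 times in Klf4, with overlaps. It is common, being found in 45.9% of windows. No STAT or TATA match lies in these windows of Nanog or Klf4, against 7.01% and 12.4% of all windows. The windows differ in CpG content: Nanog has 3 CpG dinucleotides and Klf4 has 32, where the median window has 6 and the upper quartile is 16. Of the 4 members matched in the RefSeq table, Id3 (18) and Tet2 (51) also lie above that quartile. The windows of Id3 and Tet2 precede a RefSeq start but lie inside the gene spans given above, unlike those of Nanog and Klf4. A match is a description of letters and not of binding.

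The listed genes are a part of each library. They summed to between 56367 and 72975 reads in wild type, and to between 143682 and 451075 in Yaf2KO. Full library totals were not used here, and these sums do not stand in for them. All 161 genes averaging 100 counts or more had more reads in Yaf2KO, with a median log2 ratio of group means of 2.18 (lowest 0.85, highest 5.99). An excess of raw reads is therefore shared by these genes. The sources used here do not give how genes came onto the list. Yaf2 is missing from the rows used here, so the targeted gene could not be checked. The defining stem cell markers Pou5f1, Sox2, Esrrb and Zfp42 are not among them either. In bulk RNA fewer cells of a type and less RNA per cell cannot be told apart.

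In raw reads all 6 genes had higher means in Yaf2KO, and Klf4 stood furthest from wild type. Nanog had 2239, 1750 and 2756 counts in wild type 1 to 3 and 20052, 8710 and 2816 in Yaf2KO 1 to 3. Its Yaf2KO 3 count is barely above the highest wild-type one. The ratio of group means was 4.68 (2248 ± 503 against 10526 ± 8760, SD, n = 3 each).

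Klf4 had 148, 94 and 160 reads in wild type against 5073, 1120 and 507 in Yaf2KO, a ratio of means of 16.7. Each Yaf2KO library stood well clear of wild type, at 37.9, 8.36 and 3.78 times the wild-type mean. Its family member Klf5 had 790, 666 and 586 counts against 6555, 1962 and 826, a ratio of 4.58. Klf5 in Yaf2KO 3 came to 1.21 times the wild-type mean.

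Tfap2c had 736, 637 and 395 reads in wild type against 5789, 2751 and 1193 in Yaf2KO (ratio of means 5.51). Id3 had 366, 360 and 217 counts against 1159, 1748 and 530, the smallest ratio of the 6 at 3.64. Id3 was also the only one of the 6 with its highest count in Yaf2KO 2; the others peaked in Yaf2KO 1. Tet2 had 465, 345 and 533 counts against 5272, 1610 and 509. Yaf2KO 3 falls inside the wild-type range for Tet2, and its ratio of means (5.50) comes from the other libraries.

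For 5 of the 6 genes the lowest Yaf2KO count exceeded the highest wild-type count, Tet2 being the exception. The same held for 27.4% of all listed genes, and for 73.3% of the 161 genes averaging 100 counts or more, to which the 6 belong. The raw separation is thus near the background of genes with as many reads. An exact two-sided permutation test of log2 counts gave p = 0.1 for each of the 5 and p = 0.2 for Tet2. The smallest p that 3 against 3 libraries allow is 0.1. By size of the raw ratio of means Klf4 ranked 8 of 161. The other 5 lay in the body of the distribution, from rank 51 (Tfap2c) to 116 (Id3).

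**Figure D1:**
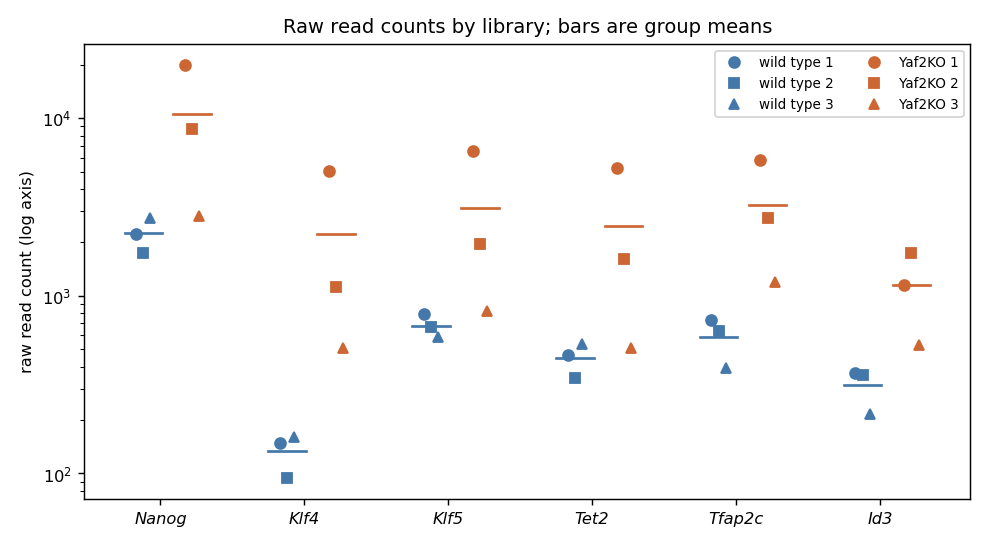
Raw read counts (log axis) of the 6 genes in each library, wild type in blue and Yaf2KO in orange, with bars at group means of 3 libraries. Klf4 goes from 94 to 160 counts in wild type to 507 to 5073 in Yaf2KO, while Tet2 in Yaf2KO 3 (509) lies within its wild-type range.

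**Figure D2:**
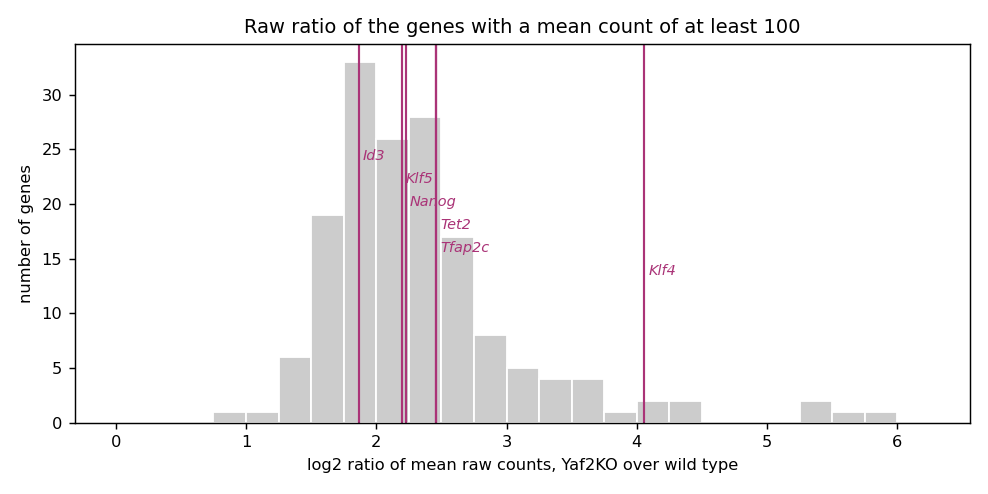
Histogram of the log2 ratio of mean raw counts, Yaf2KO over wild type, for the 161 genes averaging 100 counts or more (bins of 0.25), with lines at the 6 genes. Klf4 (4.06) lies in the right tail; Id3 (1.87), Klf5 (2.19), Nanog (2.23), Tet2 (2.46) and Tfap2c (2.46) lie around the median of 2.18.

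Scaled on the listed genes, Klf4 alone kept the genotypes apart. Values here are CPM, reads per 1e6 reads of the listed genes after TMM scaling, so that a fold change is read relative to the middle of the listed genes. Klf4 had 2209, 1622 and 2309 CPM in wild type, against 10450, 4418 and 3822 in Yaf2KO (2047 ± 371 against 6230 ± 3667, SD, n = 3 each). All 3 Yaf2KO values exceed all wild-type values. Groups were separate in that direction for 6.12% of the 376 genes with enough reads to be tested, and in the opposite direction for 4.26%.

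Over these 376 genes edgeR called 0.798% higher and 0% lower at an adjusted p under 0.05, and 0 of the 6 genes were among the calls. At an unadjusted p under 0.05 there was 1 of the 6, Klf4. Its log2 fold change was 1.61 (SE 0.45, 95% interval 0.61 to 2.60, adjusted p = 0.177 by edgeR), rank 15 of 376 by size and 10 by p. DESeq2 called it on the same genes (1.65, adjusted p = 0.0374, 2.66% of genes called higher). By limma-voom it was not called (1.52, adjusted p = 0.544), but that method called 0 of the 376 genes. Without a low-count filter edgeR called it at 1.97 (adjusted p = 0.00584, 0.916% of genes called higher). Without Yaf2KO 1 the log2 fold change of Klf4 came to 1.0 (adjusted p = 0.183 by edgeR).

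Nanog overlapped between the genotypes on this scale, with 33413, 30201 and 39780 CPM in wild type, against 41305, 34358 and 21228 in Yaf2KO. Its highest and lowest values are both in Yaf2KO, and the log2 fold change was -0.09 (SE 0.33, interval -0.82 to 0.63, adjusted p = 0.95 by edgeR). Klf5 had 11789, 11494 and 8458 CPM against 13503, 7739 and 6227, with the highest and the lowest values both in Yaf2KO. The log2 fold change of Klf5 was -0.21 (SE 0.37, interval -1.02 to 0.60, adjusted p = 0.95 by edgeR).

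Tet2 had 6939, 5954 and 7693 CPM in wild type against 10860, 6351 and 3837 in Yaf2KO, so Yaf2KO brackets wild type. The log2 fold change was 0.03 (SE 0.40, interval -0.86 to 0.93). Tfap2c had 10983, 10993 and 5701 CPM against 11925, 10852 and 8993, and the higher mean in Yaf2KO rests on the low value of wild type 3. The log2 fold change of Tfap2c was 0.20 (SE 0.35, interval -0.57 to 0.97), and it came to -0.07 without wild type 3. Id3 had 5462, 6213 and 3132 CPM against 2387, 6895 and 3995, with Yaf2KO 1 below and Yaf2KO 2 above all wild-type libraries. Its log2 fold change was -0.16 (SE 0.45, interval -1.15 to 0.84). The intervals of these 5 genes each leave room for a change of up to about 1 log2 unit in 1 direction or the other, so they do not show equal levels.

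The scaling sets the zero point of these values. Taking all libraries as equally deep moves the median of the tested genes to 2.12 log2 units. edgeR then calls all 6 genes higher, where 75.7% of the 415 tested genes are called. Relative to that median Klf4 stays about as far above the others (4.06, against 1.87 for Id3 to 2.46 for Tfap2c).

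**Figure D3:**
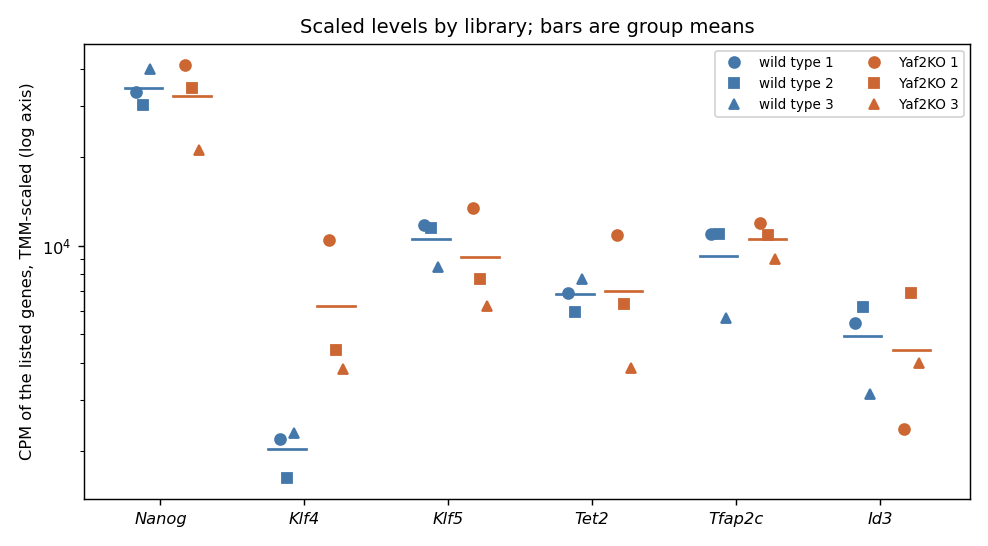
TMM-scaled CPM of the listed genes (log axis) for the 6 genes in each library, with bars at group means of 3 libraries. Klf4 is the gene whose Yaf2KO libraries (3822 to 10450) all lie above wild type (1622 to 2309); the genotypes overlap in the other 5.

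Ratios between genes of the same library need no library total and no scaling, and there too Klf4 was higher in Yaf2KO relative to Nanog, Klf5 and Tet2. For every 100 reads of Nanog there were 6.61, 5.37 and 5.81 reads of Klf4 in wild type 1 to 3 and 25.3, 12.9 and 18.0 in Yaf2KO 1 to 3. The wild-type libraries lie close together and all Yaf2KO values stand well above them. The mean log2 ratio went from -4.07 ± 0.15 to -2.47 ± 0.49 (SD, n = 3 each), a difference of 1.60 or 3.03-fold (exact permutation p = 0.1, two-sided, the smallest possible).

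Counting error is small beside this difference. Of the reads of Klf4 and Nanog together, Klf4 held 6.20% (95% exact binomial interval 5.27 to 7.24) in wild type 1, 5.10% (4.14 to 6.20) in wild type 2 and 5.49% (4.69 to 6.38) in wild type 3. In Yaf2KO 1 to 3 it held 20.2% (19.7 to 20.7), 11.4% (10.8 to 12.04) and 15.3% (14.1 to 16.5). The wild-type intervals overlap one another and lie below all Yaf2KO intervals, which are apart from one another. These intervals cover counting error only.

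Against Klf5, its family member, Klf4 had 18.7, 14.1 and 27.3 reads per 100 in wild type, against 77.4, 57.1 and 61.4 in Yaf2KO. The difference in mean log2 ratio was 1.74 (3.33-fold), with separate groups. Against Tet2 it had 31.8, 27.3 and 30.0 reads per 100, then 96.2, 69.6 and 99.6, a difference of 1.55 and again separate groups. Against Tfap2c the groups were barely separate: the highest wild-type value was 40.5 per 100 (wild type 3) and the lowest Yaf2KO value 40.7 (Yaf2KO 2), with a difference in means of 1.21. Against Id3 the groups overlapped, with 73.7 per 100 in wild type 3 and 64.1 in Yaf2KO 2, and a difference in means of 1.70. That difference came to 0.87 without Yaf2KO 1, which had 437.7 reads of Klf4 per 100 of Id3.

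Of the 15 ratios among the 6 genes, 4 had separate groups, and all 4 include Klf4. Over the 12880 ratios of any 2 genes averaging 100 counts or more, 15.9% had separate groups. The 5 ratios of Klf4 share its counts and are not independent of one another. With no p below 0.1 possible, none of the 15 could pass a threshold of 0.05 before adjustment. Set against every other gene averaging 100 counts or more, Klf4 was higher in all Yaf2KO libraries relative to 106 of 160 and lower relative to 2. For the median gene these numbers were 1 and 9, and Klf4 ranked 7 of 161 by the first. Tfap2c was higher relative to 12 and lower relative to 7, and Tet2 to 4 and 9. Nanog was higher relative to 2 and lower relative to 13, Klf5 to 0 and 16, and Id3 to 0 and 11.

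The ratios without Klf4 had no separate groups. Tet2 had 20.8, 19.7 and 19.3 reads per 100 of Nanog in wild type, against 26.3, 18.5 and 18.1 in Yaf2KO. That is the steadiest ratio in wild type (SD 0.05 log2 units) and its difference between genotypes was 0.05, with groups not separate. The small difference averages Yaf2KO 1, above all wild-type values, with Yaf2KO 2 and 3, below them (SD 0.30 in Yaf2KO). Nanog against Klf5 differed by 0.14 and Tet2 against Klf5 by 0.18, with overlap. Tfap2c against Klf5 had the largest difference among ratios without Klf4, 0.52, where Yaf2KO 2 and 3 (140.2 and 144.4 reads per 100) lay above wild type (67.4 to 95.7) and Yaf2KO 1 (88.3) lay within it. Ratios to Id3 spread widely in Yaf2KO: Nanog had 1730 reads per 100 of Id3 in Yaf2KO 1 but 498 and 531 in Yaf2KO 2 and 3.

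**Figure D4:**
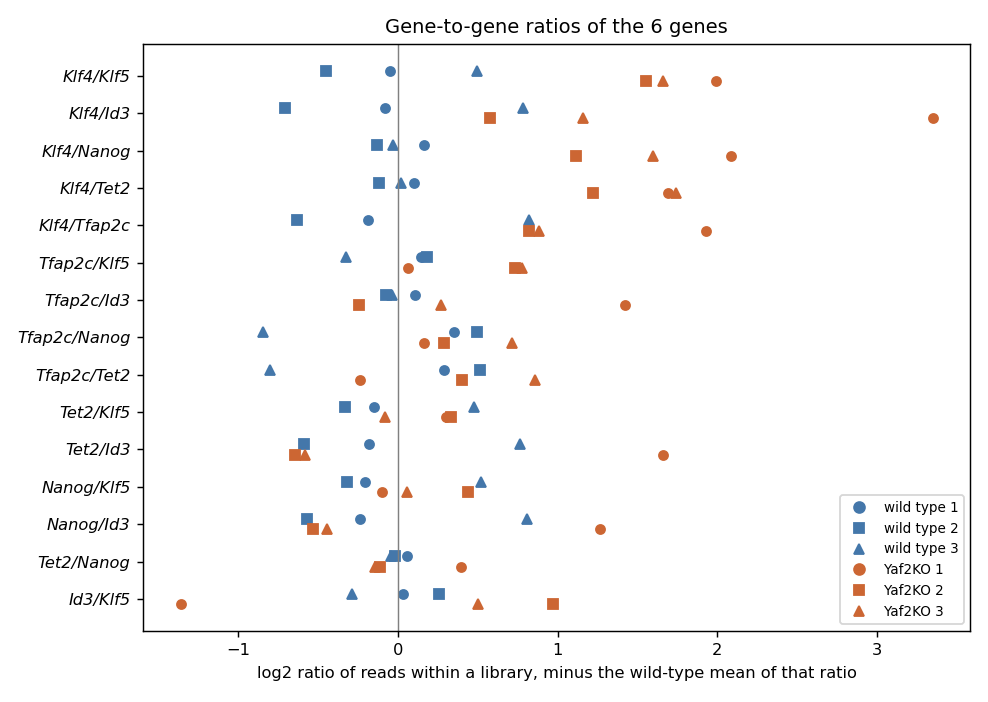
log2 ratio of reads of 2 genes within a library, minus the wild-type mean of that ratio, for the 15 pairs of the 6 genes, with 1 point per library. For Klf4 over Klf5, Nanog and Tet2 the Yaf2KO points (orange) stand clear of wild type (blue), Klf4 over Tfap2c is just separate, and the other 11 ratios overlap.

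Levels of different genes can be compared only per length, here as CPM of the listed genes per kilobase of annotated exon (2242 bases for Nanog, 3049 for Klf4, 5201 for Klf5, 16870 for Tet2, 3679 for Tfap2c and 1791 for Id3). The exons of all transcripts are merged, which lowers the level of genes with long rare isoforms. Nanog was the highest of the 6 in all 6 libraries (15372 ± 2175 in wild type, 14405 ± 4548 in Yaf2KO, SD, n = 3 each), and Tet2 the lowest in all 6 (407 ± 51.7 and 416 ± 211). In wild type the order below Nanog was Id3 (2756 ± 897), Tfap2c (2508 ± 830), Klf5 (2034 ± 354) and Klf4 (671 ± 122). Id3 stood in place 2 and Klf4 in place 5 in every wild-type library, while Tfap2c and Klf5 exchanged places 3 and 4 in wild type 3. The ranges of Id3, Tfap2c and Klf5 over the wild-type libraries overlap. In Yaf2KO the order was Tfap2c (2878 ± 403), Id3 (2471 ± 1276), Klf4 (2043 ± 1203) and Klf5 (1760 ± 738), and the ranges of neighbours in this order overlap. Klf4 was in place 2 in Yaf2KO 1, 5 in Yaf2KO 2 and 4 in Yaf2KO 3.

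The Yaf2KO libraries differed among themselves in these genes, and not all genes followed the same order. They also differed in Zfy1 and Uba1y, genes of the Y chromosome picked for that difference. Zfy1 had 119, 138 and 86.6 CPM in wild type 1 to 3 and 1724, 3.94 and 0 in Yaf2KO 1 to 3. Uba1y had 1612, 1035 and 1342 CPM against 2015, 51.3 and 52.8. Yaf2KO 1, where Klf4 was highest, was thus unlike Yaf2KO 2 and 3 in both. The cause was not tested. Relative to the wild-type mean on the scaled log2 axis, Nanog stood at 0.27, 0.00 and -0.69 in Yaf2KO 1, 2 and 3. Klf5 (0.37, -0.44, -0.75) and Tet2 (0.67, -0.10, -0.83) had the same order. Klf4 had that order too, but from a higher base (2.37, 1.13, 0.92). Tfap2c spread least in Yaf2KO (0.43, 0.30, 0.03), with a standard deviation of 0.21 log2 units in Yaf2KO against 0.55 in wild type, where wild type 3 was low. Id3 differed in order (-0.99, 0.54, -0.25). For the median tested gene the standard deviation was 0.45 in wild type and 0.69 in Yaf2KO, and Klf4 (0.28 and 0.78), Nanog (0.20 and 0.50) and Tet2 (0.19 and 0.75) likewise spread more in Yaf2KO. Together the 6 genes held 6.37% to 7.23% of the listed reads in wild type. In Yaf2KO 1, 2 and 3 they held 9.73%, 7.13% and 4.44%.

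Markers of the feeder fibroblasts varied between the same libraries. Of 40 markers chosen for this cell type, with earlier results of these data known, 7 were listed, 0 of them at 0 in every library. All 7 had more raw reads in Yaf2KO, but so did all 161 genes whose raw ratios were compared above. The raw direction therefore does not set these markers apart. The 7 markers summed to 2.17% to 3.02% of the listed reads in wild type. In Yaf2KO 1, 2 and 3 it was 1.001%, 4.98% and 2.85%. On the scaled log2 axis that is -1.52, 0.88 and 0.21 relative to wild type, the order in which Id3 varied. Klf4 was highest in Yaf2KO 1, where these markers were lowest. Tagln, a smooth muscle gene, had the most reads of the 7 in every library and so weighs most in the sum. It had 1200, 900 and 780 reads in wild type against 2493, 7092 and 2428 in Yaf2KO. The actin gene Acta2 had 192, 195 and 87 against 346, 2261 and 225. The collagen gene Col1a1 had 252, 285 and 210 against 290, 1487 and 742, the calponin gene Cnn1 87, 81 and 105 against 490, 752 and 328, and the myosin light chain gene Myl9 245, 169 and 400 against 896, 885 and 365. Postn and Prrx1, fibroblast genes with at most 12 counts in any library, were at 0 in Yaf2KO 1. Of the 5 tested 0 passed the test (log2 fold change from -0.61 for Myl9 to 0.61 for Cnn1). Over all tested genes edgeR called 0.798% higher and 0% lower, so 0 calls do not set these markers apart. The part of feeder cells in the levels of Id3 or Klf4 was not tested.

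**Figure D5:**
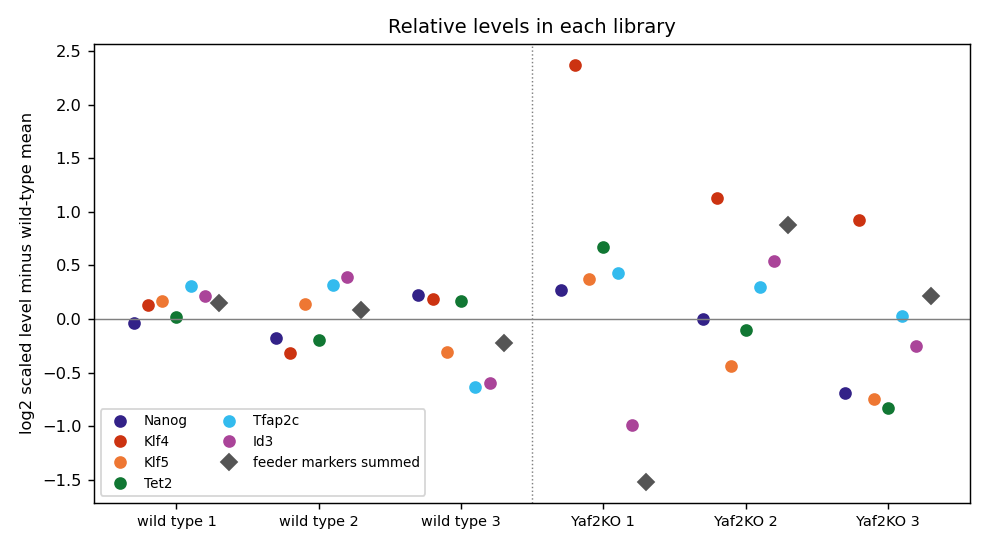
Scaled log2 level of the 6 genes (circles) and of the summed feeder markers (grey diamonds) in each library, minus the wild-type mean. Klf4 lies above 0.9 in all Yaf2KO libraries, Nanog, Klf5 and Tet2 are highest in Yaf2KO 1 and lowest in Yaf2KO 3, and Id3 and the feeder markers are lowest in Yaf2KO 1 and highest in Yaf2KO 2.

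The listed genes most like each of the 6 were found by the standard deviation, over the 6 libraries, of the log2 ratio to it, among 155 others averaging 100 counts or more. For Nanog they were Prdm14, a naive and germline factor (SD 0.17), Dppa3, a maternal and germline protein gene (0.23), and Tns3, which encodes a tensin (0.23), where the median gene had 0.60. Dppa3 had 364, 403 and 450 reads in wild type against 3555, 1316 and 579 in Yaf2KO. For Tet2 they were Ooep (0.15), Cpsf4l (0.21) and Hal (0.24), with a median of 0.68. For Klf5 they were Aff1 (0.09), a gene of transcription elongation, Manba (0.21) and Atp2b4 (0.23), with a median of 0.65. Aff1 had 269, 239 and 187 counts against 2127, 743 and 275, so its ratio to Klf5 hardly varied.

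Klf4 had no neighbour with as small an SD, but its median SD over other genes was also the highest of the 6. Its nearest were Myo1f (0.37), a myosin gene, Padi4 (0.59), a peptidylarginine deiminase gene, and Rab25 (0.61), an epithelial Rab GTPase gene, with a median of 1.13. Myo1f had 22, 12 and 13 reads in wild type against 453, 102 and 43 in Yaf2KO. The nearest to Tfap2c were Vcan (0.24), the versican gene, Dsg2 (0.25), a desmoglein gene, and Dact1 (0.26). The nearest to Id3 were Soga3 (0.27), Nes (0.31), an intermediate filament gene, and Gprc5c (0.34). Nes had 705, 672 and 537 counts against 1889, 3046 and 1507, with its highest count in Yaf2KO 2, as Id3. These likenesses are over 6 libraries that all genes share.

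Other genes of the same pathways are thinly represented in the list. Of 34 further pluripotency symbols 5 were listed and tested and 0 were called, where edgeR called 0.798% of all tested genes higher and 0% lower (median log2 fold change -0.16, against -0.03 over all 376 tested genes). Dppa3 (-0.16, SE 0.33), Tcl1 (-0.59, SE 0.48) and Prdm14 (-0.24, SE 0.47) had values below 0. The T-box factor gene Tbx3 (1.18, SE 0.63) and Spic (0.18, SE 0.61) had values above it, and Tbx3 had 41, 43 and 20 counts against 1038, 290 and 57. Of 19 LIF and STAT3 symbols Bcl3 was listed, a target of that pathway, with 166, 118 and 194 counts against 603, 568 and 252 and a log2 fold change of -0.44 (SE 0.39). Klf4's upstream factor Stat3 is not among the rows used here. Of 28 BMP, SMAD and ID symbols only Msx1 was listed, at 10, 17 and 11 counts against 46, 73 and 7 (-0.44, SE 0.70), so Id3 has no family member beside it. Of 24 further KLF and SP symbols 3 were listed and 1 tested, Sp5, a WNT target (0.49, SE 0.65); Sp7 had at most 15 counts in any library. The TET, DNMT and methyl-CpG list (17 symbols) and the AP-2 and trophectoderm list (19 symbols) had 0 members listed.

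Of 13 primordial germ cell symbols 5 were listed and 4 tested, with 0 called against the same 0.798% (median -0.03); Prdm14 and Dppa3 are on this list and on the pluripotency list. Rhox5, a germline homeobox gene, had a log2 fold change of 0.10 (SE 0.55). Primitive endoderm had Sox7 alone of 15 symbols (-0.42, SE 0.55). The formative and primed epiblast list, which marks the state that follows naive pluripotency, had 10 of 22 symbols listed and tested, with a median of 0.79. Of these 2 were called higher, against 0.798% of all tested genes: Lef1, an effector of WNT signalling (3.51, SE 0.64, adjusted p = 0.0434 by edgeR), and Wnt8a, a WNT ligand (3.23, SE 0.55, adjusted p = 0.0434 by edgeR). Neither call held when any single wild-type library was left out, where edgeR called 0 genes of the series. The list was chosen with earlier results of these data known, so the share called in it is not a test of the list.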

How the data were processed

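The deposited files hold raw read counts per gene for 1653 genes, 1 file per library, per the file headers. Named in the submitters' processing notes, without roles, are HTSeq 0.6.0, TopHat2 2.0.12 and Cufflinks 2.2.1, with mm10. The sources used here do not give the strand setting, so reads of overlapping genes cannot be told apart. Files list the genes in different orders and were joined by gene identifier. Of the identifiers 1640 are in GENCODE vM21 (GRCm38), which gave exon lengths; promoters came from RefSeq (GRCm38.p6). Sample titles gave the groups and replicate numbers. Every pair of libraries differed by more than sampling noise (lowest chi-square over its degrees of freedom 5.01).

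edgeR 4.0.16 (R 4.3.3) fitted all 6 libraries by quasi-likelihood with TMM factors, filterByExpr (376 genes) and Benjamini-Hochberg adjustment at 0.05 over all tested genes. CPM take the listed genes' sum, times its TMM factor, as the library total. Ratios used log2 of counts plus 1. The fit was tested on simulated data with a dispersion of 0.253 for every gene. It called 21 of 23 tested genes with a true fold of 8 and 8 of 20 with a true fold of 4. For true folds of 0.125 and 0.25 it called 10 of 10 and 4 of 8, and for unchanged genes 1 of 357. Changes of 4-fold were thus often missed there. DESeq2 1.42.0, limma 3.58.1, other scalings and filters, a replicate block and leaving out each library were alternatives. The genes named are the 6, the 3 most alike of each, called list members (otherwise the 2 with most reads) and feeder markers with a mean count of at least 10. Postn and Prrx1 fall below that minimum, and they, Tbx3, Spic, Zfy1 and Uba1y were named after their values were seen, as was the absence of single symbols. The 6 genes and all lists were chosen with earlier results of these data known. Other steps ran in Python 3.11.15 with scipy 1.17.1, numpy 2.4.6, matplotlib 3.10.9 and pandas 2.3.3.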

Additional observations from a re-analysis of the deposited data

How the results depend on the processing

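Of 96 log2 fold changes of the 6 genes under other settings, 72 kept direction and side of the threshold, 6 kept direction and were then called, and 18 had the opposite direction. At equal depth Nanog came to 2.23, Klf4 to 4.06, Klf5 to 2.19, Tet2 to 2.46, Tfap2c to 2.46 and Id3 to 1.87, a setting that by construction does not remove the shift all genes share. With no low-count filter, as with a minimum mean CPM of 1, Nanog came to 0.26, Klf4 to 1.97, Klf5 to 0.10 and Id3 to 0.11. The DESeq2 Wald test gave Klf4 1.65. Tet2 came to -0.078 with upper-quartile factors, to -0.028 with limma-voom and to -0.082 with the replicate block. With single libraries left out Nanog ranged from -0.32 to 0.15, Klf4 from 1.0 to 1.85, Klf5 from -0.61 to 0.00, Tet2 from -0.43 to 0.33, Tfap2c from -0.072 to 0.42 and Id3 from -0.64 to 0.15. The cause was not tested.

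The 3 calls of the series became 314 at equal depth, 10 by DESeq2, 15 without a filter and 15 with the CPM minimum. They became 0 by limma-voom (14 at p under 0.05 before adjustment), 0 with the replicate block (18) and 0 at an adjusted p under 0.01, and ranged from 0 to 11 with single libraries left out. Library sizes summed after the filter, a setting added after seeing the data, gave 3 calls and Klf4 at 1.68. With single libraries left out raw groups were separate for 5 to 6 of the 6 genes. Scaled groups were separate for 1 to 2, the other gene being Klf5, lower, without Yaf2KO 1. Separate ratios numbered 4 to 7 with single libraries left out, with 7 each without wild type 3 and without Yaf2KO 1. Leaving out a library cannot undo a separation, so none of these counts could fall, and they do not test it. Differences of the Klf4 ratios were 0.85 to 2.25 over 40 values, those of the main setting included. For the 4 ratios with separate groups, leaving out a library could not bring the difference below 0. Only the ratio to Id3 could have changed sign that way, and its lowest value was 0.87, without Yaf2KO 1.

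No label says that equal replicate numbers mark pairs. Over genes, the deviations of libraries 1, 2 and 3 from their group means correlated at 0.02, 0.14 and 0.14 between genotypes, and not every library correlated best with its own number. In the replicate block Klf4 had a log2 fold change of 1.47 (adjusted p = 0.35 by edgeR). The lowest count of the 6 genes in any library is 94 (Klf4). Exact intervals of the Klf4 share of Klf4 and Nanog reads overlap between the wild-type libraries and do not tell these apart. Against Klf5 the wild-type libraries do differ by more than counting error. Of the reads of Klf4 and Klf5 together, Klf4 held 12.4% (10.1 to 14.9) in wild type 2 and 21.4% (18.6 to 24.6) in wild type 3.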
